A study of Caenorhabditis elegans with 4 samples.

Results

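The authors called 929 GEI-11 regions on chromosome III of the nematode Caenorhabditis elegans, of 6192 on the 6 chromosomes together. The members are all chromosome III rows of the authors' combined list, taken by chromosome and by no measured value. They are described here for the centre, the right arm and the left arm, which are equal parts of the chromosome by length, each 4.59 Mb long, and a region belongs to the part that holds its midpoint. The left-arm part ran from 1 to 4587989, the centre from 4587990 to 9175978 and the right-arm part from 9175979 to 13763968, the end of the last region called on this chromosome in any list. Coordinates are in build WS220 and count from 1.

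The data come from chromatin immunoprecipitation followed by sequencing (ChIP-seq) of whole hermaphrodite worms at larval stage L3, kept at 20 degrees Celsius. All 4 libraries, 2 of anti-GFP ChIP and 2 of input DNA, came from strain OP179. Its genotype is unc-119(ed3) III with the transgene wgIs179, which carries unc-119(+) and gei-11 fused to TY1, EGFP and 3xFLAG. The ed3 mutation is thus on chromosome III, and the normal unc-119 copy of the transgene, which was made by bombardment, is in every library, input included. No strain without the tag is among the samples, and whole worms give 1 signal for all cell types. The labels do not say whether replicates 1 and 2 came from separate cultures, and their differences may be technical only. The ChIP libraries had 3773496 and 3560372 reads, and the input libraries had 8331974 and 7222788. Of these, the sample sheet counts 2500000 and 2800000 as unique in the ChIP libraries and 6000000 in each input, rounded values. Replicate 1 thus had more ChIP reads in all, and replicate 2 more unique ones.

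GEI-11, also named SNPC-4, is a DNA-binding subunit of the small nuclear RNA activating protein complex. This complex binds upstream of small nuclear RNA genes and is needed for their transcription, and in the worm germline SNPC-4 is also needed for transcription of piRNA genes, most of which lie on chromosome IV. Chromosome III carries no such large piRNA gene domain. Worm chromosomes have no single centromere. Their autosomes have a central domain with little recombination and many highly expressed genes, flanked by arms that recombine more and hold more repeats. The equal parts used here do not follow the bounds of those domains exactly.

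Regions were sparser toward the left end than elsewhere on the chromosome. The centre held 354 combined regions, the right arm 332 and the left arm 243. These numbers are 38.1%, 35.7% and 26.2% of the regions of the chromosome. The density was 77.2 regions per Mb in the centre (95% exact Poisson interval 69.3 to 85.6), 72.4 per Mb in the right arm (64.8 to 80.6) and 53.0 per Mb in the left arm (46.5 to 60.1). The centre was 1.46 times as dense as the left arm (95% exact interval 1.23 to 1.72, two-sided exact binomial test adjusted over the 3 pairs, p = 1.9e-05). The right arm was 1.37 times as dense as the left arm (1.15 to 1.62, adjusted p = 0.00035, same exact test). The centre and the right arm, at a ratio of 1.07, were not told apart (0.915 to 1.24, adjusted p = 0.42, same exact test). This test counts every region as a separate event. Regions that lie side by side are not separate, and where they cluster the p-value comes out too low.

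Each replicate list, called on 1 ChIP library, gave the same order of the areas. The replicate 1 list had 276 regions in the centre, 222 in the right arm and 173 in the left arm. The replicate 2 list had 159, 143 and 101 in the same order of areas. The ratio of the centre to the left arm was 1.60 in replicate 1 and 1.57 in replicate 2, and that of the right arm to the left arm was 1.28 and 1.42. All these ratios passed the exact binomial test, with adjusted p-values between 4e-06 and 0.017. The centre was 1.24 times as dense as the right arm in replicate 1 (exact binomial test, adjusted p = 0.017) and 1.11 times in replicate 2 (adjusted p = 0.39, same exact test). Whether these ratios differ between the replicates was not tested. Among the 3096 strongest regions over all chromosomes, the ratio of the right arm to the left arm was 1.27 and did not pass (exact binomial test, adjusted p = 0.073). Among regions found in neither replicate, the density was 18.3 per Mb in the centre, 22.9 in the right arm and 13.9 in the left arm. There the right arm passed against the left arm (exact binomial test, adjusted p = 0.0060). The centre was not told apart from the left arm (adjusted p = 0.15, same exact test), nor from the right arm, at a ratio of 0.80 (0.593 to 1.08, adjusted p = 0.15, same exact test).

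**Figure D1:**
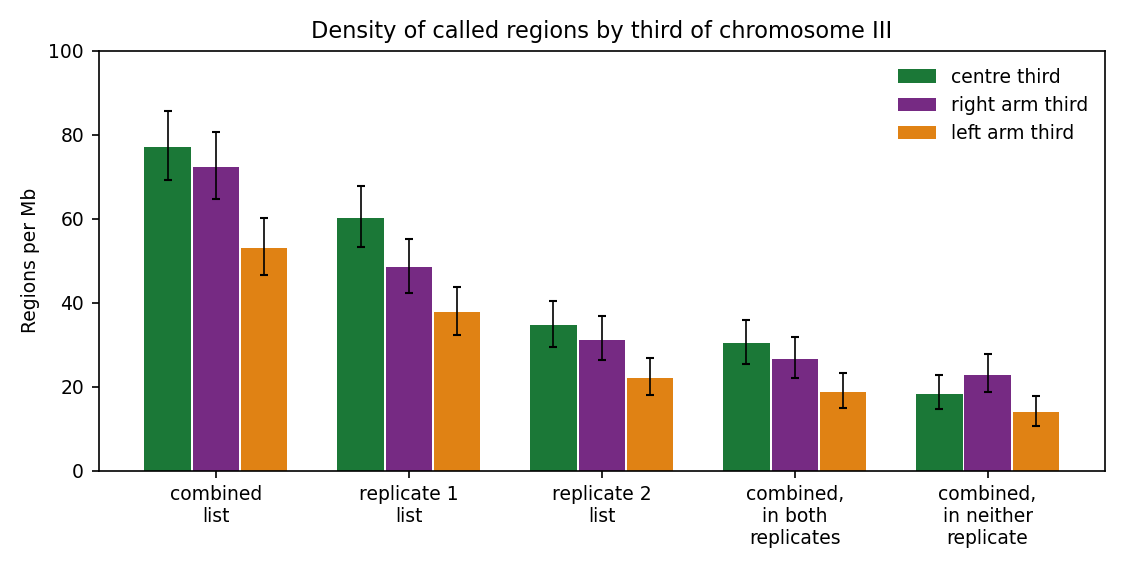
Called regions per Mb (y axis) in the centre, right arm and left arm of chromosome III, for the combined list, each replicate list and the combined regions found in both or in neither replicate; error bars are 95% exact Poisson intervals. The left arm is the lowest bar in every group, from 53.0 per Mb in the combined list to 13.9 per Mb among regions found in neither replicate.

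A finer view divided the chromosome into 15 bins of 0.918 Mb, 5 to each area. The 4 bins at the left end held between 31 and 54 combined regions each, while the other 11 held between 47 and 88. The innermost bin of the left arm, from 3670392 to 4587989, had 85 regions, as many as the fullest bin of the centre. The density was thus 43.0 per Mb in the 4 bins at the left end and 76.4 per Mb in the other 11. In replicate 1 the values were 27.5 against 56.5 per Mb, in replicate 2 they were 16.9 against 33.8 per Mb, and among regions found in both replicates 13.9 against 29.3 per Mb. These 4 bins were singled out after their values were seen, so no test was made. The fullest bin of all, with 88 regions, lay in the right arm from 10093577 to 11011174.

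In each replicate list the outermost bin on the right and the bin next to it held fewer regions than any bin of the centre. So did the innermost bin of the right arm, with 35 and 26, so counts did not fall steadily toward the right end. In the combined list that innermost bin held 55 regions. The outermost bin on the right, from 12846371 to 13763968, held 60 combined regions, which is the median of the 15 bins, 35 of replicate 1 and 22 of replicate 2. The outermost bin on the left held 41, 24 and 18. The bin next to the right end, at 47 combined regions, was the emptiest of the right arm. Bins of the centre held 54 to 85 combined regions. In replicate 1 the bin next to the right end held 28 regions and the outermost 35, against 47 to 67 in bins of the centre. In replicate 2 they held 21 and 22, against 28 to 35. Among regions found in both replicates they held 18 and 19, against 23 to 30. Approximate recombination domains, placed from general knowledge and not from the files, were also tried, with a left arm of 3.7 Mb, a centre of 6.6 Mb and a right arm of 3.46 Mb. With these the density was 77.1 per Mb in the centre, 75.1 per Mb in the right arm and 43.2 per Mb in the left arm. The centre was then 1.78 times as dense as the left arm (exact binomial test, adjusted p = 9.1e-11). A left arm so placed is nearly the same stretch as the 4 bins at the left end, 3.67 Mb, singled out after their values were seen. This p-value is therefore no separate test of the sparse left end.

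**Figure D2:**
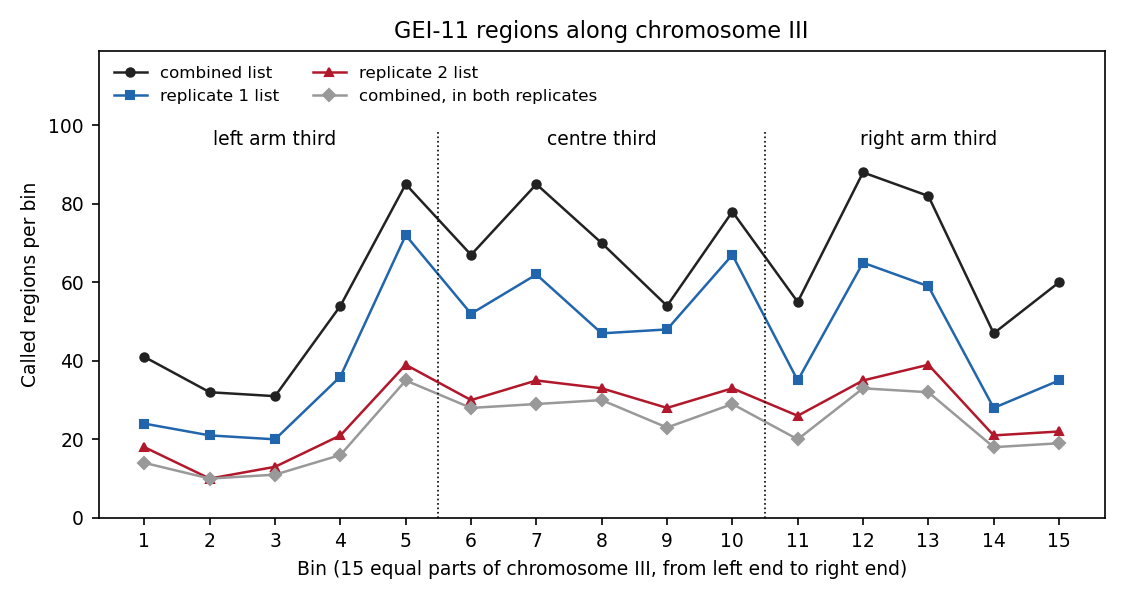
Number of called regions (y axis) in 15 equal bins of chromosome III from the left end to the right end (x axis), for the combined list, each replicate list and the combined regions found in both replicates; dotted lines part the left arm, centre and right arm. All 4 lines are low in the first 4 bins, where the combined list has 31 to 54 regions, and rise in the fifth, where it has 85.

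In the combined list the left arm held the smallest share on chromosomes II, III and IV. On chromosome III, 38.1% of combined regions lay in the centre, 35.7% in the right arm and 26.2% in the left arm. On chromosome II these shares were 38.9%, 40.1% and 21%, and on chromosome IV they were 30.6%, 43.3% and 26.1%. On chromosome I the shares were 40.3%, 29.7% and 30.0%, and on chromosome V they were 41.7%, 27.5% and 30.8%. Chromosome X had 22.5% in the centre, 45.5% in the right arm and 32.0% in the left arm. The order on chromosome III was the same in each replicate list and among regions found in both replicates, with 40.1% in the centre, 35.2% in the right arm and 24.8% in the left arm there. On chromosomes I, II and X the order also stayed the same in all of these lists, while on chromosomes IV and V it changed with the list. On chromosome V the left arm was the smallest in both replicate lists and among regions found in both, with 26.3% against 29.7% in the right arm. On chromosome IV the centre, with 35.6%, was above the right arm, with 34.4%, among regions found in both. Differences between chromosomes were not tested.

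The order of the 3 areas by median strength was not the same in the 3 lists. Strength is −log10 of the q-value that the authors give for each region, the smallest false discovery rate at which it would be called. It ranks regions within a list and grows with sequencing depth and with width, so it is no binding level. The median strength on chromosome III was 4.11 (interquartile range 2.72 to 7.49), against 4.16 (2.78 to 7.64) on the other chromosomes. It was 4.33 in the centre, 3.96 in the right arm and 4.10 in the left arm. In replicate 1 the order was different, with 3.35, 3.42 and 3.48, and in replicate 2 it was different again, with 3.81, 3.84 and 3.29. Medians differed between areas by less than the interquartile range of any area, and no test was made, since regions of a list are not replicates.

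The median width on chromosome III was 360 bp (285 to 492 bp), against 337 bp (223 to 481 bp) on the other chromosomes and 372 bp on the other chromosomes without chromosome IV. It was 349 bp in the centre, 350 bp in the right arm and 382 bp in the left arm. The left arm had the widest median in replicate 1 as well, with 327.5, 345.5 and 360 bp in the same order of areas, and in replicate 2, with 364, 359 and 378 bp. Regions covered 404 kb, or 2.93% of chromosome III, against 2.48% of the other chromosomes. They covered 3.52% of the centre, 3.01% of the right arm and 2.28% of the left arm. Wide regions tended to be strong, with a Spearman rho of 0.62 across the 929 regions, which share libraries and depth, so the rho is a description only.

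A strength of 20 or more was reached by 54 regions of chromosome III, which is 5.81%, against 6.10% on the other chromosomes. These were 23 regions or 6.50% of those in the centre, 20 or 6.02% in the right arm and 11 or 4.53% in the left arm. Whether these shares differ was not tested. A strength of 100 or more was reached by 8 regions, of which 3 lay in the centre, 4 in the right arm and 1 in the left arm. All 54 were overlapped by regions of both replicates, as were all 321 regions of this strength on the other chromosomes.

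The strongest region of the centre spanned 5080504 to 5081718, 1215 bp, and its strength was 197 with the libraries merged. Replicate 1 gave it 136 over 1019 bp, and replicate 2 gave it 129 over 1014 bp. The next spanned 7140288 to 7142472 and had a strength of 193. It was 2185 bp wide, and each replicate list had 2 regions in its place. In replicate 1 the stronger piece lay on the right, from 7140971 to 7142468, with a strength of 94.0 against 26.7 for the left piece. In replicate 2 the stronger piece lay on the left, from 7140283 to 7141554, with 79.2 against 30.1 for the right piece. The replicates thus split this region at different places, and their stronger pieces overlap from 7140971 to 7141554.

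The other strong regions of the centre were single in most lists. The region from 7278122 to 7278987 reached 147 when the libraries were merged, 110 in the first and 105 in the second replicate. The region from 8794612 to 8796342 reached 86.9 merged, 48.8 in the first and 47.4 in the second replicate, and in replicate 2 a weak second piece with a strength of 4.64 lay beside it. The region from 5653725 to 5654215 reached 57.1, 31.7 and 32.5 in the same order of lists. The replicate values at these 3 places lay closer to each other than to the combined value.

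The right arm held the strongest region of the whole chromosome, which was number 4 of the combined list over all chromosomes. It spanned 10989193 to 10990147, 955 bp, and its strength was 202 merged, 167 in replicate 1 and 164 in replicate 2. To its right followed the region from 11090085 to 11091222, with 177 merged, 101 in replicate 1 and 111 in replicate 2. The region from 12249981 to 12251480 had 178, 134 and 145 in the same order of lists. At these last places replicate 2 had the higher value, though its list was shorter, with 403 regions on chromosome III against 671 in replicate 1. The region from 11463574 to 11464251 was at 132 merged, 98.7 in replicate 1 and 86.5 in replicate 2. The region from 9717010 to 9717599 had 83.4, 53.0 and 55.1.

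The left arm had fewer such regions, and all of its 5 strongest lay in its inner part. The strongest spanned 4413103 to 4414455 and was at 128 merged, 94.4 in replicate 1 and 93.4 in replicate 2. Replicate 2 called it as 1 region of 1367 bp. Replicate 1 called a strong piece of 525 bp and a weak piece of 281 bp with a strength of 5.21. A neighbour from 4426759 to 4427677 was at 80.9 merged, 59.9 in replicate 1 and 51.9 in replicate 2. The region from 3867036 to 3867765 had 58.1, 40.4 and 36.9 in the same order of lists. The regions from 3377569 to 3378418 and from 4281856 to 4282853 had combined strengths of 49.4 and 45.4. The outermost of these 5 regions began at 3377569, in the fourth bin from the left end. In the 3 bins at the left end the highest strength was 34.9.

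**Figure D3:**
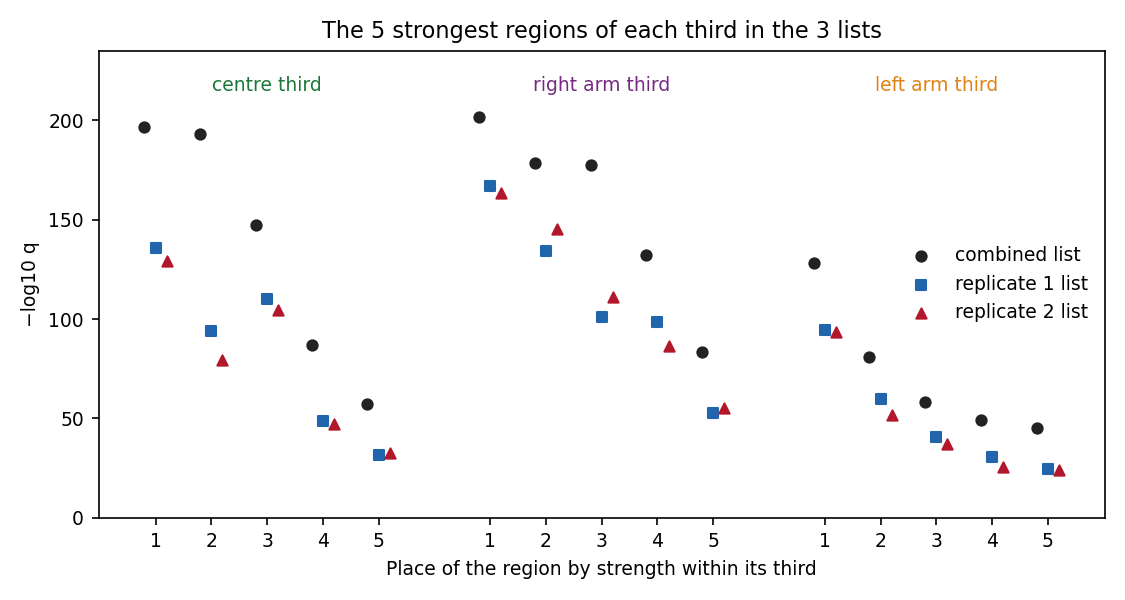
Strength (−log10 q, y axis) of the 5 strongest regions found in both replicates in each area of chromosome III, ordered by strength within the area (x axis), in the combined list and each replicate list; each point is 1 region in 1 list, without error. The strongest region is at 197 in the centre, 202 in the right arm and 128 in the left arm, and both replicate points lie below the combined point at every place.

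The widest region of the chromosome was of moderate strength. It lay in the centre from 9050942 to 9054983, 4042 bp, and reached 48.2 merged, 25.1 in replicate 1 and 18.0 in replicate 2. Replicate 1 called 3 pieces there, the longest 2311 bp, and replicate 2 called 1 region of 3286 bp. The next in width, also in the centre, spanned 8443228 to 8446188, 2961 bp, and reached 30.0 merged, 19.8 in replicate 1 and 11.9 in replicate 2. The next lay in the left arm from 3620538 to 3622978, 2441 bp, with a strength of only 8.76. Its best pieces had 2.93 in replicate 1 and 3.05 in replicate 2, and replicate regions covered 26.8% and 48.8% of it. A width of 750 bp or more was reached by 89 regions, or 9.58%, against 9.33% on the other chromosomes and 12% on those without chromosome IV. By area these were 40 regions or 11.3% in the centre, 28 or 8.43% in the right arm and 21 or 8.64% in the left arm.

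Chromosome III held 6 of the 20 strongest combined regions, or 30.0% (95% exact Clopper-Pearson interval 11.9 to 54.3%), against 13.8% of the total chromosome length. Among the 100 strongest the share was 15% (8.65 to 23.5%), among the 500 strongest 13.4% (10.5 to 16.7%), among the 1000 strongest 14.9% (12.7 to 17.3%), and over the whole list 15% (14.1 to 15.9%). In replicate 1 the chromosome held 4 of the 20 strongest and 16 of the 100 strongest, and in replicate 2 it held 5 of the 20 and 16 of the 100. None of these regions among the 20 strongest of a list lay in the left arm. The interval of the share among the 20 strongest reaches below the share of length, so the high value at the top of the list is not told apart from it. That of the whole list lies above it. These intervals too count every region as a separate event, and where regions cluster they come out too narrow.

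Replicate support, meaning that both replicate lists have a region sharing 1 bp or more with a combined region, was not told apart between chromosome III and the rest. It was found for 347 of the 929 combined regions, which is 37.4% (95% exact interval 34.2 to 40.6%), where the share over all 6192 regions was 35.2%. On the other chromosomes it was 34.8% (33.5 to 36.1%). The difference of 2.54 percentage points (95% Newcombe interval -0.774 to 5.95) did not pass (two-sided Fisher's exact test, p = 0.14). By overlap with the replicate 1 list, whatever replicate 2 showed, the difference was 4.60 points and passed (Fisher's exact test, p = 0.0078). By overlap with the replicate 2 list, whatever replicate 1 showed, it was 1.97 points and did not (p = 0.26, same exact test). Without chromosome IV among the others, the difference in support from both replicates was 0.810 points (Fisher's exact test, p = 0.67). Here too every region counts as a separate event.

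Of the other regions of chromosome III, 277 had support from replicate 1 alone, 52 from replicate 2 alone and 253 from neither. Those with replicate 1 alone were 29.8% of the 929 regions, close to 27.8% on the other chromosomes. Those with replicate 2 alone were 5.60%, close to 6.18%. The share in neither was 27.2% on chromosome III (24.4 to 30.2%), where it was 30.7% over all regions. In the centre 139 of 354 regions were found in both replicates, or 39.3% (34.1 to 44.6%). In the right arm it was 122 of 332, or 36.7% (31.5 to 42.2%), and in the left arm 86 of 243, or 35.4% (29.4 to 41.8%). None of the 3 differences passed, at 3.87 points for the centre over the left arm, 2.52 points for the centre over the right arm and 1.36 points for the right arm over the left arm (Fisher's exact test, adjusted p = 0.79 for each). Overlap with replicate 1, whatever replicate 2 showed, gave 71.2% in the centre, 62.3% in the right arm and 67.9% in the left arm. There the centre and the right arm differed by 8.84 points (Fisher's exact test, adjusted p = 0.045). By overlap with replicate 2, whatever replicate 1 showed, they differed by 1.58 points, with an adjusted p of 0.73 in the same exact test.

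**Figure D4:**
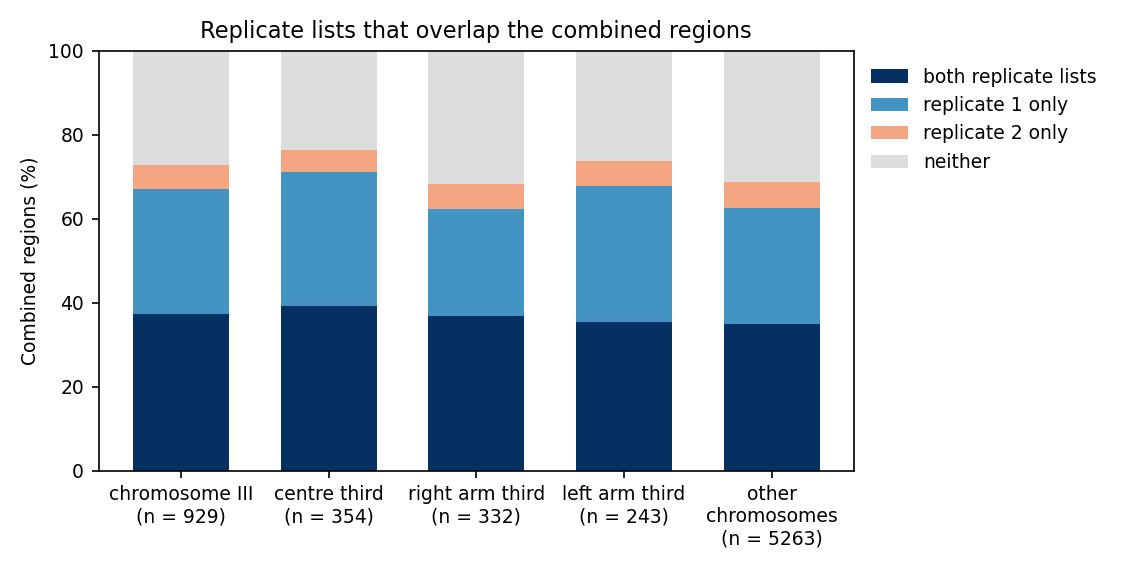
Share of combined regions (y axis, percent) overlapped by both replicate lists, by 1 of them or by neither, for chromosome III, its centre, right arm and left arm, and the other chromosomes (x axis, with the number of regions). The share found in both is 37.4% on chromosome III, between 35.4% and 39.3% in its areas, and 34.8% on the other chromosomes.

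Whether a region was found in both replicates went with its strength. The 203 strongest regions of chromosome III were all found in both. The strongest that was not spanned 11002389 to 11002985 in the right arm, had a strength of 8.19 and overlapped replicate 1 only, where it reached 7.12. The strongest found in replicate 2 only, from 9697222 to 9697650, had 6.44. The strongest found in neither, from 13763077 to 13763968, had 5.02 and is the last region of the chromosome. At the other end, the weakest region found in both had a strength of 3.72 and spanned 11774456 to 11774747. All lists were made from the same 2 ChIP libraries, which ties strength to replicate support by construction.

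The combined list over all chromosomes was cut by rank into 5 classes of nearly the same number. In class 1, the strongest, all 179 regions of chromosome III were found in both replicates, against 98.6% on the other chromosomes. In class 2, with strengths from 5.09 to 9.06, it was 141 of 195, or 72.3%, against 64.4% on the other chromosomes. In class 3 it was 27 of 177, or 15.3%, against 10.7%. None of the 184 regions of chromosome III in class 4, or of the 194 in class 5, was found in both. On the other chromosomes the shares were nearly the same, at 0.0949% in class 4 and 0% in class 5. Within class 2 the share was 74.7% in the centre, 75.4% in the right arm and 65.5% in the left arm, on 75, 65 and 55 regions. No test was made within classes.

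Most replicate 2 regions of chromosome III lay on replicate 1 regions. Of the 403 replicate 2 regions, 350 overlapped a replicate 1 region, or 86.8% (95% exact interval 83.2 to 90.0%), where the share over all 2617 regions of the list was 84.5%. In the other direction 354 of 671 did, or 52.8% (48.9 to 56.6%), where it was 51.1% over the whole replicate 1 list. By area, 88.7% of the replicate 2 regions in the centre were shared, 86.0% in the right arm and 85.1% in the left arm, with intervals that overlap widely.

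Pairs of replicate regions that were each other's best overlap lay close together. There were 348 such pairs on chromosome III, and their midpoints lay a median of 30 bp apart (interquartile range 14 to 64.9 bp), the same median as for 1849 pairs on the other chromosomes. In 233 pairs, or 67.0%, the midpoints lay within 50 bp. The replicate 2 region was the wider one in 47.4% of pairs. The replicate 1 region was the stronger one in 254 pairs, or 73.0%, against 67.6% on the other chromosomes. Strength gave a Spearman rho of 0.73 across the pairs, against 0.74 on the other chromosomes. It was 0.74 in the centre, 0.72 in the right arm and 0.73 in the left arm. These values are across regions that share their libraries and, per the sample sheet, a combined input signal, so they are a description without a test.

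**Figure D5:**
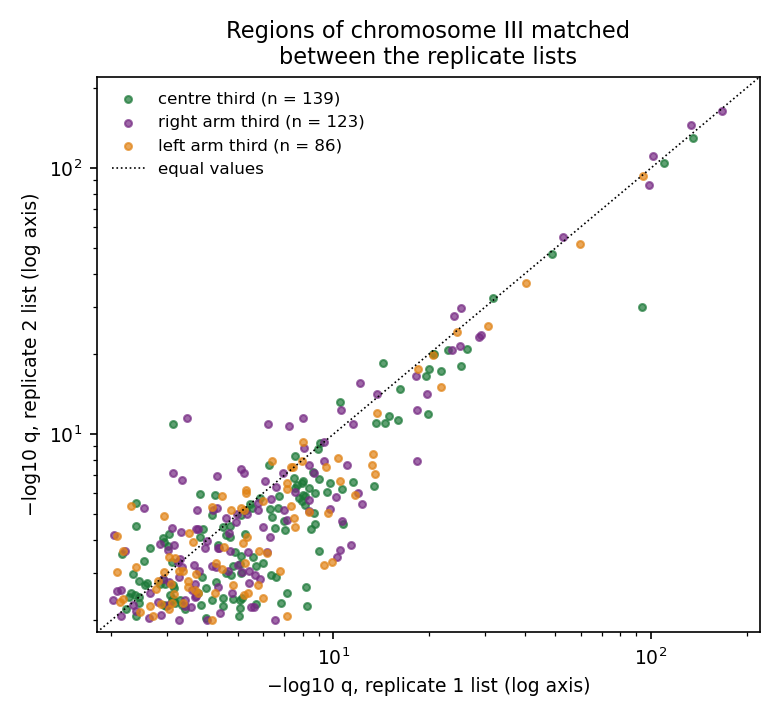
Strength (−log10 q) in the replicate 1 list (x axis, log scale) and in the replicate 2 list (y axis, log scale) of the 348 regions of chromosome III that match between the lists; each point is 1 pair of regions, coloured by area, and the dotted line marks equal values. Strong regions lie near the line, except 1 point of the centre at 94.0 and 30.1, the region that the replicates split at different places; weak ones scatter more widely, most of them below the line.

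Regions were also counted in windows of 100 kb, and whether they cluster was not tested. Over all 138 windows of 100 kb the median was 6 combined regions and the most was 18, and no window was empty. The window from 7100001 to 7200000 in the centre held 18 regions, 10 of them found in both replicates, and includes the region of strength 193. The window from 11000001 to 11100000 in the right arm held 18, 7 of them found in both, and includes the region of strength 177. The window from 10500001 to 10600000 held 17, of which 5 were found in both, and its strongest region had a strength of only 15.2. Another window, from 11300001 to 11400000, also held 17. The median window had 7 regions in the centre, 6.5 in the right arm and 5 in the left arm, and the fullest window of the left arm had 12.

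The median gap between neighbouring regions was 7.84 kb on chromosome III, against 7.46 kb on the other chromosomes and 10.2 kb on those without chromosome IV. It was 7.28 kb in the centre, 6.56 kb in the right arm and 9.83 kb in the left arm. A neighbour within 1000 bp was listed for 213 regions, or 22.9%, against 22.5% on the other chromosomes and 17.9% on those without chromosome IV. The widest gap, 139 kb, lay in the left arm from 1950604 to 2089464, and the next, 135 kb, in the centre from 6722485 to 6857392. Neither replicate list had a region midpoint in these gaps. They are gaps of the combined list, which nearly all replicate regions of the chromosome overlap, so this is no separate check.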

How the data were processed

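The authors deposited 3 region lists, each region with a q-value, and the lists name PeakSeq as their source. According to the deposited sample sheet, both ChIP libraries were merged for the combined list, each replicate list used 1 of them, and a combined input signal was named for all 3. The sheet also gives the read totals and read length of 36 bases, other values deposited by the authors. The headers name WS220 and the sheet WS190. Comment lines record that coordinates were moved. Of the alignment and the calling, nothing more is given in the sources used here.

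All rows were used, without a filter, in Python 3.11.15 with NumPy 2.4.6, pandas 2.3.3 and SciPy 1.17.1. Every q-value was below 0.01. Regions overlapped if they shared at least 1 bp. Densities were compared by two-sided exact binomial tests and shares by two-sided Fisher's exact tests, with Benjamini-Hochberg adjustment over the 3 pairs of areas. Intervals are 95% and cover counting error only. The labels name no molecular identifiers, so reads may not be independent molecules. The functions were tested on simulated data. The reads behind each region and the signal along the genome were not analysed here. A single region therefore has no error bar, and its depth is unknown. Genes and sequences were not used here, for want of a genome or annotation of the build of the lists.

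The members, areas, tests and named regions were chosen with earlier results of these data known. Named regions are the 5 strongest of each area found in both replicates, the 3 widest, the strongest found in neither replicate, the strongest replicate region that overlaps no combined region, and the 3 fullest windows of 100 kb. Other regions, windows and gaps that the text singles out were chosen after their values were seen.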

Additional observations from a re-analysis of the deposited data

How the results depend on the processing

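Of 64 alternatives to 12 values, all planned, 50 kept the direction and the side of the threshold or, for untested values, stayed within the 95% interval of the main value. The ratio of the centre to the left arm ran from 1.43 to 1.78 and passed the exact binomial test in all 8 of its alternatives. These draw on the same 2 ChIP libraries, so they are not separate checks. The highest ratio came with recombination domains, whose left arm nearly matches the 4 bins singled out after their values were seen. The full WS220 length and the removal of regions under 50 bp hardly changed the input and left the ratio at 1.46. The ratio of the right arm to the left arm, 1.37, did not pass among the 3096 regions with the smallest q-values (1.27). The ratio of the centre to the right arm was 1.11 in replicate 2 and 1.24 in replicate 1, where it passed, and its lowest value was 1.03, with recombination domains. In what follows, support with 1 replicate alone means overlap with that list, whatever the other list showed. Replicate support of the right arm minus the left arm, 1.36 points, was -5.55 with replicate 1 alone, 1.62 with replicate 2 alone and at most 5.46, among those 3096 regions. That of the centre minus the right arm, 2.52 points, turned to -2.79 among those 3096 regions and was 1.58 with replicate 2 alone, 0.747 with 50% reciprocal overlap and 8.84 with replicate 1 alone, where it passed. That of chromosome III minus the other chromosomes, 2.54 points, passed Fisher's exact test among those 3096 regions (5.82 points, p = 0.013) and with replicate 1 alone (4.60). It was 1.97 with replicate 2 alone, 0.956 without regions under 50 bp and 0.810 without chromosome IV. The overlap of the replicate lists, 86.8%, fell to 80.4% with 50% reciprocal overlap and to 73.9% with lists of equal length. Median width, 360 bp, was 341 bp in replicate 1 and 367 bp in replicate 2, and was 451 bp among regions found in both replicates. Median strength, 4.11, was 3.42 in replicate 1 and 3.68 in replicate 2, and was 9.23 among regions found in both. The cause of these changes was not tested. No paired analysis was possible because no list gives the inputs values of their own. A region missing from a replicate list is not shown to be unbound there, and whether depth set such calls was not tested.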

Other observations

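Regions under 50 bp were rare on chromosome III, with 17 of 929, or 1.83%, against 6.16% on the other chromosomes and 2.52% on those without chromosome IV. They were spread over the areas, with 6 in the centre, 6 in the right arm and 5 in the left arm. None was found in both replicates, and neither was any of the 324 such regions on the other chromosomes.

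Of the 671 replicate 1 regions on chromosome III, 37 overlapped no combined region, or 5.51%, against 8.98% on the other chromosomes. None of the 37 overlapped a replicate 2 region, and on the other chromosomes only 2 of 332 such regions did, so this is no trait of chromosome III. The strongest, from 6072435 to 6072614 in the centre, was 180 bp wide with a strength of 3.67. All 403 replicate 2 regions on chromosome III overlapped a combined region, while 19 of 2214 on the other chromosomes did not.

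Comment lines in the lists record that 1 place on chromosome III, now 10505124 to 10505449 in the combined list, was shifted by 16 bp and widened by 1 bp when coordinates were moved. The merged libraries gave it a strength of 9.44, replicate 1 gave 6.19 and replicate 2 gave 3.60.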
